A study of Mus musculus with 5 samples.

Results

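Cycling C1q macrophages are the barcodes that hold the messages of complement component C1q together with those of cell division. A barcode was taken as a C1q macrophage if it had at least 200 detected genes, at most 15% mitochondrial UMIs (unique molecular identifiers, each counting 1 captured transcript), at least 5 UMIs of C1qa, C1qb and C1qc together, at most 1 UMI of Cd3e, Cd3d and Cd3g together, and fewer than 10 UMIs of the tumour cell gene Crabp1. It was taken as cycling if Mki67, Top2a and Birc5 together had at least 2 UMIs. These rules found 79 cells among 626 C1q macrophages and 9565 barcodes past the gene and mitochondrial limits. Of the 79 cells, 78 came from the control library and 1 from the anti-CTLA-4 library. The members were thus chosen by measured values, and the levels of the 6 rule genes are a description.

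BALB/c mice, 6 weeks old, carried subcutaneous tumours of CT26, a colon carcinoma line. The treated group received 100 µg of the anti-CTLA-4 antibody 9H10 into the peritoneum on days 5, 8 and 11 after the tumour cells, the control group received phosphate-buffered solution on the same days, and both were taken on day 13. Both groups share the strain, the tumour line and the injection days, and the labels name the material only as tissue, dissociated with a kit for mouse tumours. Each group is 1 droplet library, the number of mice behind it is not given in the sources used here, and no difference below has a replicate check. The control library held 5649 barcodes and 86478313 UMIs (median 6827 per barcode), against 4186 barcodes and 19989467 UMIs (median 3147.5) in the anti-CTLA-4 library. The libraries also differed in make-up, with 2449 tumour-like cells (at least 10 Crabp1 UMIs, no Ptprc, at most 1 C1q UMI) against 15, the control having more. The libraries shared 20 barcodes, none of them a member and 4 of them C1q macrophages.

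C1q is the recognition unit that starts the classical complement pathway, and in tissues and tumours it is made mainly by resident and monocyte-derived macrophages. Such cells can be replaced by incoming monocytes or can divide in place, where Csf1r, the receptor for the growth factor CSF1, sustains them. Mki67 encodes a coat protein of mitotic chromosomes, Top2a untangles replicated DNA, and Birc5 (survivin) belongs to the complex that guides chromosome separation, so all 3 are high from S phase to mitosis and low in resting cells.

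Promoter sequence is shown for genes of each side of the contrast described below, cell division genes and MHC class II genes, since each group differed together between these cells and the non-cycling ones. The 150 bases before the start site are from RefSeq, build GRCm38.p6. In the first 3, capitals mark the letters TTTGAA (known as the CHR element of cell cycle promoters) and CCAAT on either strand, so that TTCAAA and ATTGG are the same motifs read on the opposite strand.
Mki67, chr7:135716380-135716529, minus strand: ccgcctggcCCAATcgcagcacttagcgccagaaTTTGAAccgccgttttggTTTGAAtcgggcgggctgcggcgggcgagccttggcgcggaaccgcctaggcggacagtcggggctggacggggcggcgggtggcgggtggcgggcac
Top2a, chr11:99024190-99024339, minus strand: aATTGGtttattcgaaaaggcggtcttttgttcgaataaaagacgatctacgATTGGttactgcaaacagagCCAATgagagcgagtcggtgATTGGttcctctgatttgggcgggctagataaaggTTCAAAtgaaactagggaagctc
Ube2c, chr2:164769779-164769928, plus strand: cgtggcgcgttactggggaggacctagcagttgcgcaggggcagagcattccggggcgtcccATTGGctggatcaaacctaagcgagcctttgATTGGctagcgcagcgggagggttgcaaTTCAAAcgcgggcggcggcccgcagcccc
In the next pair, capitals mark CTGATTGG only, the letters of the Y box of MHC class II promoters, which overlap CCAAT read on the opposite strand.
H2-Aa, chr17:34287824-34287973, minus strand: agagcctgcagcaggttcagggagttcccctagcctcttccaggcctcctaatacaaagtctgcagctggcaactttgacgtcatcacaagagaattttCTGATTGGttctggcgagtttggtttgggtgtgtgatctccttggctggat
H2-Eb1, chr17:34305717-34305866, plus strand: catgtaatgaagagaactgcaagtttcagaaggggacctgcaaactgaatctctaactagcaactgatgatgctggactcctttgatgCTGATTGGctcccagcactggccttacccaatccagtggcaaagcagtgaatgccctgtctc
Over the 250 bases before each start, TTTGAA on either strand was found in 14 of 39 G2/M list genes with a window (35.9%) against 18.3% of all 27025 genes. CCAAT was found in 31 of those 39 genes (79.5%), in 7 of 8 genes of the MHC class II list and in 37.5% of all genes. CTGATTGG was found in 3 of the 8 MHC class II genes and in 4.43% of all genes, but also in 5 of 10 genes of the MHC class I list and in 10 of the 39 G2/M genes. CCAAT was found in 8 of those 10 class I genes, so neither motif was particular to the class II list. These matches describe letters and show no binding.

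The share of C1q macrophages that cycled was higher in the control library. It was 15.7% there (78 of 497 cells, exact Clopper-Pearson 95% interval 12.6% to 19.2%) and 0.775% after anti-CTLA-4 (1 of 129 cells, 0.0196% to 4.24%). All intervals given here cover counting error only, not differences between mice or libraries. Those of gene levels and ratios also leave out the spread between the cells of a class. C1q macrophages themselves made up 9.07% of the kept control barcodes and 3.16% of those kept after anti-CTLA-4. With 1 library per group, the treatment, the tumour cell content and the library cannot be told apart.

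The 1 anti-CTLA-4 member carried the messages of an antibody-secreting cell. It had 36023 UMIs and 4467 genes, of which 23.2% of UMIs were immunoglobulin genes, against 0.00479% in the control members. Jchain, the joining chain of secreted antibody, had 989 UMIs, and Mzb1, a chaperone of antibody-secreting cells, had 281. C1qa had 9 UMIs, C1qb and C1qc had 0, Csf1r had 2 and Ptprc had 0. A B cell receptor contig was assembled for this barcode. Without barcodes that carry a receptor contig, the anti-CTLA-4 share was 0 of 127 cells, for which 3 counts allow a share of up to 2.36% and the exact interval reaches 2.86%. The control has no B cell receptor library, so its barcodes could be checked for T cell receptor contigs only. Gene levels of cycling C1q macrophages are therefore given for the control library, and no comparison of gene levels between the treatments within cycling cells was possible.

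Depth affects how many cells reach 2 UMIs, so each cell was thinned to a fixed number of UMIs, and shallower cells were left out. The C1q, Cd3 and Crabp1 limits and the cycling call were then applied to the thinned counts. At 3000 UMIs the control share was 12.1% (39 of 322 cells, 8.76% to 16.2%) and the anti-CTLA-4 share 0 of 77, which allows up to 3.90%. At 1500 UMIs the shares were 8.57% (33 of 385, 5.97% to 11.8%) and 0 of 91, which allows up to 3.30%. Set against that floor of 3 cells, the control share was 3.11-fold higher at 3000 UMIs and 2.6-fold higher at 1500 UMIs. These folds leave out the counting error of the control share and are not lower bounds. The exact anti-CTLA-4 intervals reached 4.68% at 3000 UMIs and 3.97% at 1500 UMIs. Thinning to 3000 UMIs dropped 173 C1q macrophages of the control and 48 of the treated library, and thinning to 1500 dropped 64 and 19. With C1q macrophages called on all UMIs and only the cycling call thinned, the control share was 12.3% (40 of 324) at 3000 UMIs. At 1500 UMIs it was 7.85% (34 of 433). The anti-CTLA-4 library then had 0 of 81 and 0 of 110.

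**Figure D1:**
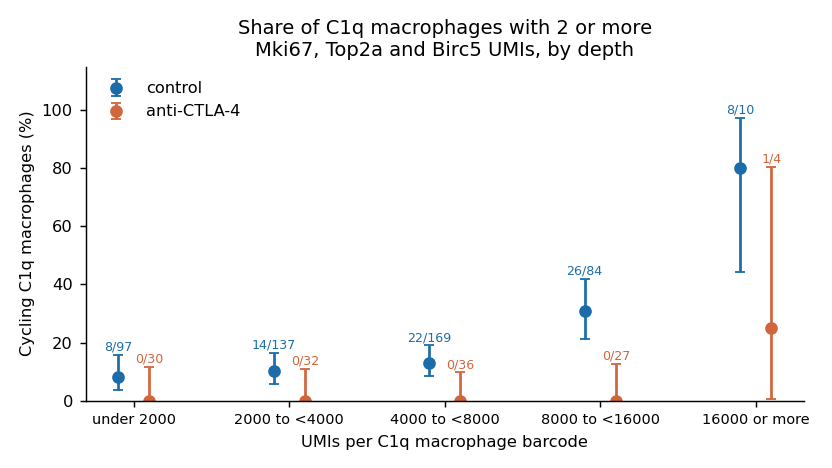
Share of C1q macrophages that cycled (vertical axis, percent) by UMIs per barcode (horizontal axis), for the control and the anti-CTLA-4 library. Points are shares, bars exact 95% binomial intervals, and labels give cycling cells over C1q macrophages. The control share runs from 8.25% under 2000 UMIs to 31.0% from 8000 to below 16000 UMIs and 80% (8 of 10 cells) at 16000 UMIs or more, where the 1 anti-CTLA-4 member also lies.

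Summed over all C1q macrophages, Mki67, Top2a and Birc5 had 2.24 UMIs per 10000 (2.06 to 2.44) in control mice and 0.149 (0.0741 to 0.266) after anti-CTLA-4, or 0.0431 without receptor-contig barcodes. T cells, defined by at least 2 Cd3 UMIs, served as a second dividing population. The share of them that cycled was 6.08% (20 of 329 cells) without and 3.59% (74 of 2060 cells) with the antibody. At 3000 UMIs the T cell shares were 8.70% (8 of 92) and 4.31% (54 of 1252), so cycling T cells were found at this depth in both libraries. Neutrophils, which do not divide once mature, gave no usable background. In the control 1 of 30 such barcodes reached 2 rule-gene UMIs, and it had 41637 UMIs. Crabp1, which was not limited in this class, stood at 36.7 per 10000 in these 30 barcodes. After anti-CTLA-4, 2 of 92 neutrophil barcodes reached 2 rule-gene UMIs, with a median of 17248 UMIs, and none of 43 did when thinned to 1500 UMIs. Mature dendritic cells, chosen by Fscn1 and Ccr7, were the other planned background and were too few to use. In the control 3 of 8 such barcodes reached 2 rule-gene UMIs, with a median of 39814 UMIs, and 0 of 16 after anti-CTLA-4.

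The rule genes were also set against free RNA from tumour cells, which Crabp1 measures. Tumour-like cells held 0.0642 Mki67, Top2a and Birc5 UMIs per Crabp1 UMI. At that ratio, the 1.16 Crabp1 UMIs per cell over all 497 control C1q macrophages, cycling or not, would bring 0.0747 rule-gene UMIs per cell, where 1.15 were found. Crabp1 is capped by the rule in these cells.

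The macrophage label was checked against Csf1r, against Ptprc (CD45, the phosphatase on all leukocytes) and against tumour genes. Csf1r stood at 3.69 UMIs per 10000 (3.22 to 4.20) in the members, at 4.31 (3.99 to 4.64) in the 352 control C1q macrophages without a rule-gene UMI, called non-cycling here, and at 0.00192 in cycling tumour-like cells. Ptprc stood at 1.60 in members and 2.20 in non-cycling cells, and no UMI was found in 960 cycling tumour-like cells, which were selected for lacking it. A Csf1r UMI was present in 58 of the 78 members (74.4%) and a Ptprc UMI in 53. Either gene had a UMI in 65 members, and both genes had one in 46. The 13 members with neither were shallow, with a median of 2384 UMIs against 7129.5 for all members. Per 10000 UMIs they also held more Crabp1, 2.86 against 1.68 in the 65 members with either gene. They held less C1q (80.1 against 143) and less Lyz2 (44.6 against 71.6). Whether some of these 13 hold tumour cell RNA beyond free RNA was not tested.

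A panel of 50 genes, chosen for high levels in tumour-like cells against non-cycling C1q macrophages, took 0.0488% of the members' UMIs, 0.0690% of the non-cycling cells' and 1.64% of the tumour-like cells'. The member with most tumour-panel RNA had 0.274%, and none reached 50% of the tumour-like median of 1.58%. Members had 883 to 18812 UMIs, well under the tumour-like median of 28498. Just outside the rule lay 14 control cells with 10 or more Crabp1 UMIs that otherwise met it. Their median was 36879 UMIs, and their Csf1r level was 0.863 per 10000. A further 2 cells had 3 or 4 C1q UMIs, and none failed on Cd3 alone. No member had a T cell receptor contig.

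**Figure D2:**
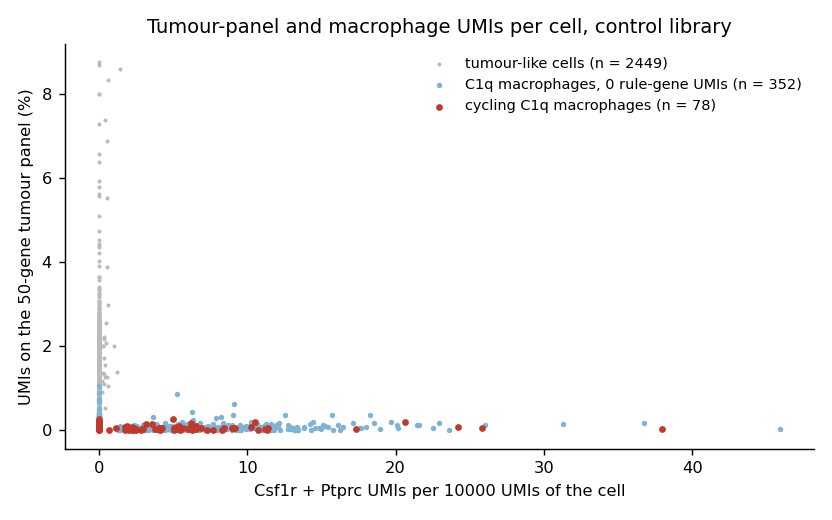
Per cell of the control library, the percent of UMIs on the 50-gene tumour panel (vertical axis) against Csf1r plus Ptprc UMIs per 10000 (horizontal axis). Cycling C1q macrophages (78) lie along the bottom with the 352 non-cycling ones, the highest member at 0.274%, and the 2449 tumour-like cells form the column at the left, from 0.212% to 8.75%.

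Markers of most other cell types were low in the members. The 25 tumour markers were the exception, at 6.96 UMIs per 10000 in members. They stood at 9.49 in non-cycling cells and 92.2 in tumour-like cells. A Crabp1 UMI was present in 52 of the 78 members. Summed T cell markers stood at 0.116 UMIs per 10000, and B cell markers at 0.512 with 7 of 9 genes at 0, among them Cd79a and Ms4a1. Most of the B cell sum was Ighm, with 28 UMIs, at 0.463 in members and 0.304 in non-cycling cells. Dendritic cell markers stood at 0.380, with Flt3, Xcr1 and Clec9a at 0. Of these, Batf3 had the most UMIs in members, at 0.182 against 0.137 in non-cycling cells, while Ccr7 stood at 0.0827 against 0.261. Neutrophil markers stood at 0.413, fibroblast markers at 0.479 and endothelial markers at 0.678. The 8 keratinocyte markers stood at 0.479 in the members and 3.35 in the non-cycling cells, where 1 cell reached 237 per 10000, and the 8 NK markers at 0.298 and 1.25.

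Gene levels were compared between the 78 members (604896 UMIs) and the 352 non-cycling cells (1610414 UMIs) as UMIs per 10000 of the class total. Each ratio is given with its exact conditional 95% interval over UMIs, with no test, because there is 1 library. The interval pools the UMIs of a class as if independent, so it is too narrow where single cells differ widely. Of 7489 genes with at least 20 UMIs, 15.4% were at least 1.5-fold higher and 16.9% at least 1.5-fold lower in the members, and the median log2 ratio was 0.04. The members were deeper (median 7129.5 against 3973 UMIs). The lists below should be read against those shares.

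Genes of cell division other than the 3 of the rule stood higher in the members, a direction that the rule itself fixes. All 36 measured G2/M genes and 27 of 28 S-phase genes were at least 1.5-fold higher, with median log2 ratios of 3.55 and 1.97. Pclaf, a partner of the replication clamp PCNA, stood at 3.55 UMIs per 10000 in members, 1.08 in cells with exactly 1 rule-gene UMI and 0.199 in non-cycling cells, a ratio of 17.9 (12.3 to 26.8). Stmn1, which destabilizes microtubules, stood at 7.24, 1.82 and 0.503, a ratio of 14.4 (11.3 to 18.5). Ratios for Spc24, a kinetochore subunit, Smc2, a condensin subunit, and Asf1b, a histone chaperone, were 15.8, 16.2 and 15.1, and for the tubulin gene Tuba1b 4.70. Of 9 measured replication histones 8 were at least 1.5-fold higher, with H2afz at 21.0 against 6.34 and H2afx at 2.08 against 0.211. All 19 chromatin proteins were higher too, with Hmgn2 at 3.69 against 0.689.

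Within the members, 58 held more UMIs of the G2/M list than of the S-phase list, 18 held more of the S-phase list, and 2 held equal numbers. The G2/M list has more genes, so this split is a ranking and no count of phases. At least 1 G2/M list UMI was present in 77 members, and at least 1 S-phase list UMI in 74. Of the members, 26 had exactly 2 rule-gene UMIs, 42 had 2 to 4, and 36 had 5 or more. Birc5 was detected in 70, Top2a in 54 and Mki67 in 41 of the 78 cells.

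Cyclins and brakes of G1 were mixed, with 5 of 18 at least 1.5-fold higher and 3 lower (median log2 ratio 0.08). Cdkn2c and Cdkn2d, inhibitors of CDK4 and CDK6, were 9.05-fold (4.37 to 20.5, 34 against 10 UMIs) and 3.57-fold (2.38 to 5.40) higher, and Cdk4 itself was 1.86-fold higher. Cdkn1a (p21), which halts cells after damage, was level at 5.74 against 5.52. Btg1, an antiproliferative gene of resting cells, stood at 3.06 against 5.77.

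Antigen presentation on MHC class II stood lower in cycling cells. None of 11 measured genes of this list was at least 1.5-fold higher and 8 were lower, with a median log2 ratio of -0.96. H2-Aa, the class II alpha chain, had 20.4 UMIs per 10000 in members against 50.04 (ratio 0.408, 0.384 to 0.434), and Cd74, the invariant chain that guides class II molecules, 48.4 against 107 (0.452, 0.435 to 0.470). H2-Ab1 and H2-Eb1 had ratios of 0.479 and 0.486. The peptide loading gene H2-DMb1 had 0.510, while H2-DMa, its partner, had 0.791. The costimulatory genes Cd40 (0.392, 14 against 95 UMIs) and Cd80 (0.499, 12 against 64 UMIs) were low in both classes, and Cd86 had a ratio of 0.882 whose interval, 0.636 to 1.21, holds 1.

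Single cells spread widely. The sum of H2-Aa, H2-Ab1, H2-Eb1 and Cd74 ran from 0 to 728 per 10000 over the members with a median of 29.6, and from 0 to 1033 over the non-cycling cells with a median of 70.0. The ranges overlapped, and 23 of 78 members lay above the non-cycling median. By class sum the level was 215 at 0 rule-gene UMIs, 110 at exactly 1, 75.4 at 2 to 4 and 111 at 5 or more. The difference was present in deep cells (at least 8000 UMIs), with 90.7 in 34 members and 244 in 49 non-cycling cells, and in shallower ones, with 111 and 202. It was smaller among cells without a Crabp1 UMI (26 members, 146 non-cycling), where the list's median log2 ratio was -0.24. Non-cycling C1q macrophages of the anti-CTLA-4 library stood at 290, in another library and at another depth. Dendritic cell markers, whose cells are rich in MHC class II, stood at 0.380 in members and 0.609 in non-cycling cells, where 1 cell reached 92.1, and their part in the difference was not tested.

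Genes for class I presentation differed little. Of 12 measured, 1 was at least 1.5-fold higher and none lower, with a median log2 ratio of 0.08. B2m, the light chain shared by class I molecules, had a ratio of 0.957 (0.906 to 1.01) and H2-D1 0.847. The immunoproteasome genes Psmb8 and Psmb9 had ratios of 1.37 (1.22 to 1.54) and 1.36.

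**Figure D3:**
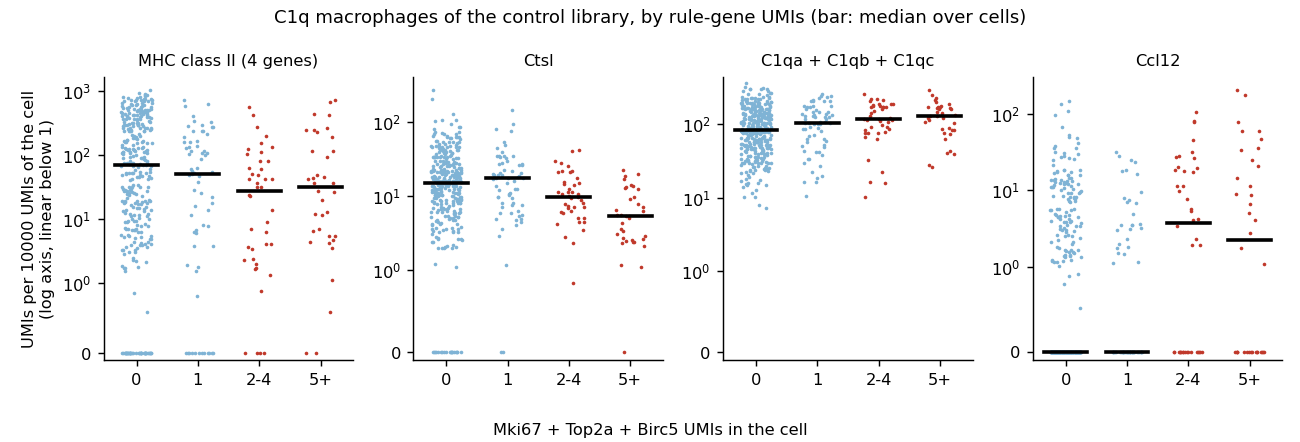
UMIs per 10000 UMIs of each control C1q macrophage (vertical axes, logarithmic above 1) by the cell's Mki67, Top2a and Birc5 UMIs (0, 1, 2 to 4, 5 or more), for 4 MHC class II genes, Ctsl, C1q and Ccl12. Points are cells, red for members, and bars are medians. Medians of MHC class II run 70.0, 50.7, 27.4 and 31.7 and of Ctsl 14.7, 17.2, 9.72 and 5.37, with wide overlap.

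Ctsl, the lysosomal protease cathepsin L, was also lower. It stood at 8.98 UMIs per 10000 in members, 24.8 at exactly 1 rule-gene UMI and 21.2 in non-cycling cells, a ratio of 0.423 (0.386 to 0.464). Over single members it ran from 0 to 41.5 with a median of 7.24, against 0 to 265 with a median of 14.7 in non-cycling cells. Members with 5 or more rule-gene UMIs stood at 6.79 and those with 2 to 4 at 12.2, while cells with 1 did not lie between members and non-cycling cells. Of 18 lipid and phagocytosis genes 5 were at least 1.5-fold lower and none higher. Among them Abca1, a cholesterol exporter, had a ratio of 0.467 (0.306 to 0.691), whereas Ctsb, cathepsin B, had 0.736. Spp1 (osteopontin) and Lgals1 (galectin-1) leaned higher, at 1.43 (1.28 to 1.60) and 1.21.

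Most macrophage identity genes differed little. Of 23 measured identity genes 20 lay within 1.5-fold, 1 was higher and 2 were lower. The C1q genes, which chose the cells, summed to 139 UMIs per 10000 in members and 112 in non-cycling cells, and the ratios of C1qa, C1qb and C1qc were 1.22, 1.22 and 1.31. In cells with at least 8000 UMIs the sums were 149 and 141. Csf1r had a ratio of 0.856 (0.732 to 0.996), Adgre1 (F4/80) 0.824, Trem2 0.972, Mrc1 (the mannose receptor) 0.905 and Ms4a7 1.07. Cd14, a coreceptor for bacterial lipids, and the platelet factor gene Pf4 were the lower 2, at 0.530 (0.482 to 0.582) and 0.563. Apoe, a lipid carrier, stood at 46.6 against 67.1. Cx3cr1, the fractalkine receptor, was the higher 1, with 39 against 54 UMIs and a ratio of 1.92 (1.24 to 2.96), but its log2 ratio was -0.30 among cells with at least 8000 UMIs.

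Monocyte genes stood lower. None of 13 was at least 1.5-fold higher and 9 were lower, with a median log2 ratio of -1.17. Ly6c2, which marks inflammatory monocytes, had 5 UMIs in members, all in 2 cells, against 87 (ratio 0.153, 0.0485 to 0.371). Fn1 (fibronectin) had a ratio of 0.295, Plac8 0.443 and Ccr2, the receptor that draws monocytes from blood, 0.622 (0.441 to 0.861). The summed list ran from 0 to 33.6 per 10000 over members with a median of 7.65, and from 0 to 118 with a median of 12.6 over non-cycling cells.

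Interferon-stimulated genes leaned lower, with 12 of 23 at least 1.5-fold lower and 1 higher (median log2 ratio -0.60). Isg15, a ubiquitin-like modifier, stood at 4.56 against 8.41 (0.542, 0.475 to 0.618), Irf7 at 3.95 against 6.12, and Rsad2 (viperin) at 0.182 against 0.907. Bst2 (tetherin) was nearly level at 0.933, and Cxcl10, which attracts T cells, was the higher 1 at 1.79 (1.43 to 2.23). Among the members Isg15 was uneven: the 2 members with most of it held 41.3% of its UMIs, which raises the member level. Medians over cells of the summed list were close, 19.97 and 21.2. Among cells without a Crabp1 UMI the list's median log2 ratio was 0.17, and Isg15, Rsad2 and Ifit2 were above 0.

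Chemokines divided into 2 sets, with 4 of 17 at least 1.5-fold higher and 9 lower. Besides Cxcl10, given above, the higher set held genes that lie together on chromosome 11 (GRCm38): Ccl2 at 82035571 to 82037453, Ccl7 at 82045712 to 82047525 and Ccl12 at 82101845 to 82103400, all on the plus strand, followed by Ccl8 at 82115185 to 82116799, which had a ratio of 1.41. They encode attractants of monocytes. Ccl12 stood at 22.2 UMIs per 10000 in members, 3.45 at exactly 1 rule-gene UMI and 5.25 in non-cycling cells, a ratio of 4.24 (3.88 to 4.62). It was detected in 57.7% of members and 39.2% of non-cycling cells, and, in cells thinned to 1500 UMIs, in 48.0% and 24.5%. Among cells with at least 8000 UMIs the order of detection was the other way, 58.8% of 34 members and 67.3% of 49 non-cycling cells. The Ccl12 level in these deep cells was 25.7 against 6.77 UMIs per 10000. Single members ran from 0 to 201 with a median of 3.08, and the top 2 held 37.3% of its UMIs. The log2 ratio of 2.08 was 2.30 with the 2 members and 9 non-cycling cells highest for it left out, and 0.83 among cells without a Crabp1 UMI.

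Ccl2 stood at 9.95 against 4.61 (ratio 2.16, 1.94 to 2.41) and Ccl7 at 11.5 against 5.34 (2.15, 1.95 to 2.38). Both rested on few cells: the top 2 members held 49.7% of Ccl2 and 46.1% of Ccl7 UMIs, and the means over cells were 7.81 against 5.98 for Ccl2 and 8.89 against 6.41 for Ccl7. Among cells without a Crabp1 UMI both stood lower in members, with log2 ratios of -0.53 and -1.29. Over the 78 members Ccl12 and the sum of Ccl2 and Ccl7 had a Spearman correlation of 0.71, and Ccl12 and MHC class II one of -0.19, both from cells of 1 library that share depth and free RNA.

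The lower set held Cxcl2 and Cxcl1, attractants of neutrophils, at ratios of 0.331 (0.287 to 0.380) and 0.344 (0.235 to 0.490), and Ccl6 and Ccl9 at 0.415 and 0.397. In cells thinned to 1500 UMIs, Cxcl2 was detected in 27.4% of members and 37.6% of non-cycling cells. Of 14 inflammatory genes 2 were at least 1.5-fold higher and 4 lower. Il1b stood at 12.2 against 16.0 (0.766, 0.705 to 0.832), Nfkbia, an NF-kappaB inhibitor, at 5.01 against 6.95, and Ptgs2 (cyclooxygenase 2) at 0.793 against 1.88. Il10, an anti-inflammatory cytokine, had 20 UMIs in members and 3 in non-cycling cells, and 75% of the former lay in 2 cells.

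**Figure D4:**
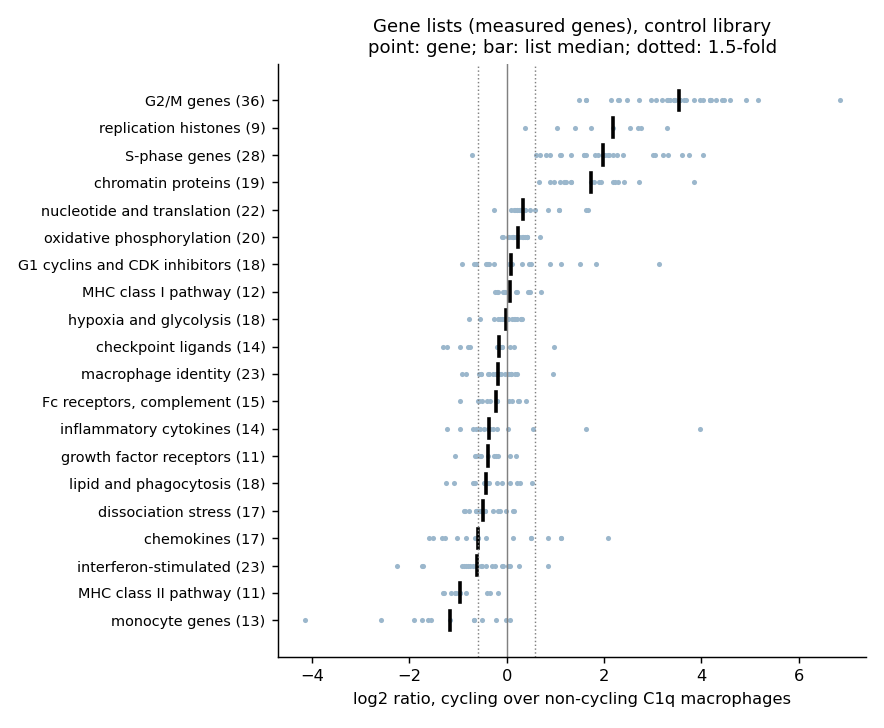
Log2 ratios of cycling over non-cycling C1q macrophages in the control library (horizontal axis) for the measured genes of 20 lists (rows, with their number). Points are genes, bars list medians and dotted lines 1.5-fold. Medians run from 3.55 for G2/M genes to -1.17 for monocyte genes, with most lists between the dotted lines.

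Other functions had list medians within 1.5-fold, but checkpoint ligands and growth factor receptors held a larger share of lower genes than the 16.9% of all genes. Of 14 checkpoint ligands 1 was at least 1.5-fold higher and 5 were lower, with Cd274 (PD-L1) at 0.575 (0.400 to 0.809), Vsir (VISTA) at 0.589 and Lilrb4a, an inhibitory receptor, at 0.911. The Cd274 log2 ratio was 0.12 among cells with at least 8000 UMIs. Of 15 Fc receptor and complement genes 2 were lower and none higher, with C3 at 0.509, Fcgr4 at 0.661 and the signalling chain Fcer1g at 0.869. None of 11 growth factor receptors was higher and 4 were lower, among them Csf2rb, the shared chain of the GM-CSF receptor, at 0.648. Hypoxia and glycolysis genes were level (median log2 ratio -0.0034), with 1 of 18 at least 1.5-fold lower and none higher.

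Biosynthesis genes lay near the background. Of 22 nucleotide and translation genes 5 were at least 1.5-fold higher, not far from the 15.4% of all genes, and none was lower. Ran, the GTPase of nuclear transport and spindle assembly, stood at 7.92 against 3.78 (2.09, 1.85 to 2.36), and Mthfd2, a mitochondrial folate enzyme, at 0.810 against 0.255 (3.18, 2.06 to 4.94). Eif5a, a translation factor, had a ratio of 1.29. Of 20 oxidative phosphorylation genes 1 was higher, below that share, Cycs (cytochrome c) at 1.60 (1.37 to 1.87), and Cox4i1 was level at 1.03. Of 17 genes induced by tissue dissociation 6 were at least 1.5-fold lower, a larger share than the 16.9% of all genes, and none was higher. Fos stood at 0.586 and Ier3 at 0.643, while the chaperone gene Hspa8 stood at 0.993.

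Several of the lowest ratios belong to genes of a few non-cycling cells. Lgals7, a keratinocyte galectin, had a ratio of 0.0979, but in cells thinned to 1500 UMIs it was detected in 12.3% of members and 16.4% of non-cycling cells, and 9 non-cycling cells held 84.8% of its UMIs. The same holds for Hspb1, a small heat shock protein, at 0.176, with 68.5% of its non-cycling UMIs in 9 cells. Keratinocyte markers moved with both, as given above. The settings run included leaving out barcodes with keratinocyte RNA. Over all settings the log2 ratio ran from -6.39 to -0.61 for Lgals7 and from -3.28 to -1.75 for Hspb1. What part keratinocyte RNA had in these ratios was not tested. F10, the clotting factor X gene, and Tcp11l2 each had 1 UMI in members against 53 and 55, ratios of 0.0502 (0.00125 to 0.292) and 0.0484 (0.00120 to 0.281).

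The same contrast was computed in the tumour-like cells of the control library and in the T cells of the anti-CTLA-4 library, since the control held only 20 cycling T cells. Division genes were higher in all 3 classes: Stmn1 was 10.2-fold higher in cycling tumour-like cells and 25.6-fold in cycling T cells, and Ran 2.11-fold and 3.32-fold. The genes leading those that were higher in C1q macrophages and under 1.2-fold in both other classes were Ch25h, Ccl7, Ccl2 and Plau. Ch25h, which makes 25-hydroxycholesterol, stood at 1.39 against 0.435 UMIs per 10000 (3.19, 2.30 to 4.45) and was detected, in cells thinned to 1500 UMIs, in 15.1% of members and 4.03% of non-cycling cells. Plau, the urokinase protease, stood at 3.57 against 1.65 (2.16, 1.80 to 2.60). Ifi30, a lysosomal reductase, had 1.37. Ch25h had only 19 UMIs in the T cells, below the 20 asked of a measured gene, so its restriction was not testable there. Clec5a, a myeloid lectin receptor with a ratio of 1.75 (1.28 to 2.38), had 13 UMIs in T cells and 6 in tumour-like cells, too few to compare. Ccl12 was 1.35-fold higher in cycling tumour-like cells.

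Lower in C1q macrophages but not below 1/1.2 in the other classes were Gadd45b, a stress response gene (0.309, 0.221 to 0.423), Ly6c1 (0.275, 0.169 to 0.427), Ahr, a ligand-activated transcription factor (0.293, 0.142 to 0.547), and Isg15. Ahr had only 11 UMIs in members against 100. Ctsl was low in all 3 classes, at 0.725 in tumour-like cells and 0.329 in T cells. H2-Aa had ratios of 0.548 in tumour-like cells and 1.64 in T cells, and Cd74 0.701 and 1.59. These classes differ in library and depth, and the differences between them were not tested.

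**Figure D5:**
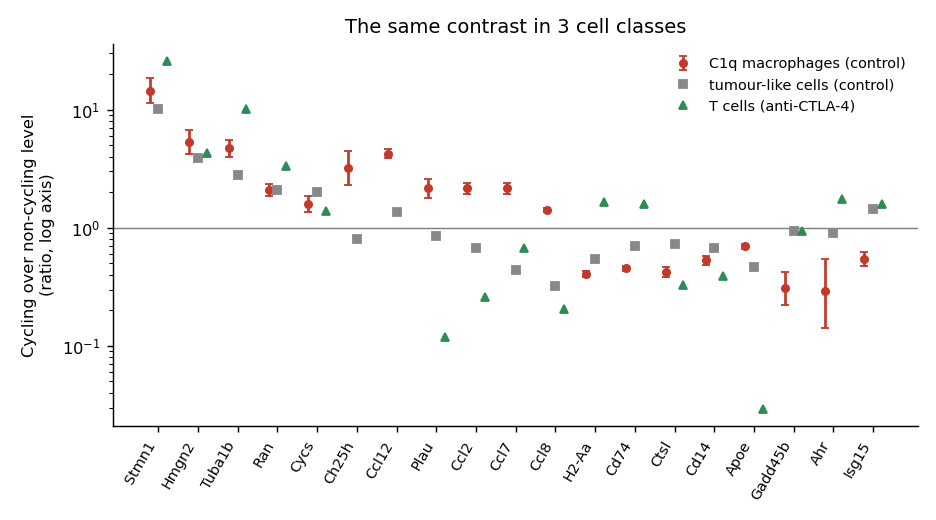
Ratio of cycling over non-cycling level (vertical axis, logarithmic) for 19 genes in C1q macrophages (control, with exact 95% intervals), tumour-like cells (control) and T cells (anti-CTLA-4). Points are left out where a class had under 20 UMIs of the gene or a ratio of 0. Stmn1, Hmgn2, Tuba1b and Ran lie above 1 in all 3 classes, and Ch25h and Plau lie above 1 in C1q macrophages and below 1 in tumour-like cells.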

How the data were processed

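Per the file headers and the submitters' processing notes, the authors ran Cell Ranger 5.0.0 (builds mm10 and GRCm38) and deposited raw UMI counts per gene and barcode, with no normalization, and UMI counts per receptor contig, which served only to mark barcodes. Groups came from the sample titles. The members, gene lists and rules were chosen with earlier results of these data known. Levels are class sums of UMIs over class totals (numpy 2.4.6, scipy 1.17.1, pandas 2.3.3), with exact Clopper-Pearson, Poisson and conditional binomial 95% intervals. The code for the ratio and its interval was run on simulated independent Poisson counts, the model that the interval assumes. That run checks the code only and cannot show how the intervals hold where few cells carry most UMIs. No p-value was computed, since each group is 1 library. Among genes with at least 50 UMIs and a UMI in 10% of the cells of the higher class, the 10 highest and 10 lowest ratios by the interval bound nearest 1 were named, with 10 each way not shared with T or tumour-like cells. From each list the 2 most abundant genes and the 2 farthest from 1 were named among those with at least 20 UMIs. Only some are printed, and other list genes were chosen after their values were seen. The planned condition that both libraries share a direction, and the planned comparison of treatments within cycling cells, could not be made with 1 anti-CTLA-4 member. Doublets were weighed by the tumour panel, the receptor contigs and, as an alternative, the highest Scrublet scores (scanpy 1.11.5). Alternatives covered filters, depth, weighting and totals.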

Additional observations from a re-analysis of the deposited data

Results flagged for a closer look

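The genes of the MHC class II list moved in opposite directions in 2 cell classes under the same contrast of cycling against non-cycling cells. Their median log2 ratio was -0.96 in the C1q macrophages of the control library (11 genes) and 0.89 in the T cells of the anti-CTLA-4 library (10 genes). In the tumour-like cells of the control library it was -0.45 (9 genes), the same direction as in the C1q macrophages. The cycling T cells were deeper than the non-cycling ones, with medians of 14816 and 3323.5 UMIs. What part depth or RNA from other cells had in the T cell value was not tested. Each value comes from 1 library, the T cells come from another library than the C1q macrophages, and the difference was not tested.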

How the results depend on the processing

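No paired analysis was possible because each group is 1 library and no result comes from a test. The control share of 15.7% was 12.1% at 3000 and 8.57% at 1500 UMIs per cell, 10.5% with at least 3 rule-gene UMIs required and 21.3% with a Csf1r and a Ptprc UMI required, and lay between 13.3% and 18.1% under the other settings run. The anti-CTLA-4 share of 0.775% was 0% in both thinnings, with at least 10 C1q UMIs, with Csf1r and Ptprc required and without receptor-contig barcodes. The 1155 higher genes became 2009 with the most-expressing cells of each gene left out. The 1264 lower genes became 808 among cells without a Crabp1 UMI and 622 among cells with at least 8000 UMIs, both with fewer cells. Of 64 printed genes past 1.5-fold, 57 kept their direction in all settings run and 36 stayed past 1.5-fold. Among cells without a Crabp1 UMI (26 members, 146 non-cycling) the log2 ratio was -0.53 for Ccl2, -1.29 for Ccl7, 0.34 for Isg15, 0.63 for Rsad2 and 0.93 for Ifit2, and the interferon list median was 0.17. Among cells with at least 8000 UMIs Cx3cr1 was -0.30 and Cd274 0.12. The chemokine median was 0.00791 with Csf1r and Ptprc required, and with the most-expressing cells left out the dendritic marker median was 0.66 and the keratinocyte marker median 0.55. The cause was not tested. The MHC class II median ran from -1.25 with Csf1r and Ptprc required to -0.24 without Crabp1. The settings on most-expressing cells, keratinocyte RNA and 8000 UMIs were chosen after seeing the data. The 3 settings planned for the treatments within cycling cells were not run. Depth limits the anti-CTLA-4 share, and genes with few UMIs have wide intervals.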
